A study of Mus musculus with 1536 samples.

Results

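Serotonin neurons that carried transcripts of Vglut3 and of a GABA-synthesizing enzyme in the same cell were examined in single-cell RNA-seq libraries of the mouse raphe. A cell was taken as a dual cell when it had Slc17a8, the gene of Vglut3, at 10 CPM or more and Gad1 or Gad2 at 10 CPM or more, CPM being the reads of a gene scaled to a fixed total of reads in every cell. Cells with Zeb2 at 5 CPM or more were left out. This gave 78 dual cells among 999 cells. They were described against 397 Vglut3-only cells, which met the same minimum of Slc17a8 and had 0 reads of Gad1 and Gad2, and against 195 Gad-only cells, which met the Gad minimum and had 0 reads of Slc17a8, with Zeb2 under the same limit in both. The 4 genes of the rule chose the cells, so their values are given as a description and support nothing.

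The libraries came from Sert-Cre;Ai14 mice (Sert-tdTomato-Cre cross with Ai14 in the labels) of the C57BL/6J strain, aged 40 to 45 days. In these mice Cre under the control of Sert (Slc6a4), the serotonin transporter gene, switches on red tdTomato fluorescence from the Ai14 reporter, so any cell that had expressed Sert earlier in life would also be labelled. Single tdTomato-positive cells were sorted into 96-well plates and made into Smart-seq2 libraries, and the table holds 290 cells on 5 plates from a dissection labelled Principal DR and 709 cells on 11 plates from one labelled All DR, which by the study's methods also took in the median raphe. All groups share the strain, genotype and age, the cells of several brains were combined, and no label ties a cell to an animal. Each dissection therefore counts as 1 sample, cells are not replicates, and no p-value is given. The agreement of plates and of the 2 dissections is given in its place.

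Vglut3 loads glutamate into synaptic vesicles and is, among the vesicular glutamate transporters, the one known from serotonin neurons. Gad1 and Gad2 encode the enzymes that make GABA from glutamate, and the vesicular transporter Vgat, the product of Slc32a1, loads GABA into vesicles. Serotonin itself is made by Tph2 and Ddc, loaded by Vmat2 (Slc18a2) and taken back up by Sert, and the transcription factor Fev (Pet1) keeps this set of genes on.

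Dual cells were found in both dissections. They were 36 of the 290 Principal DR cells (12.4%, exact Clopper-Pearson 95% interval 8.85 to 16.8%) and 42 of the 709 All DR cells (5.92%, 4.30 to 7.92%). All intervals of shares in the text are of this kind and cover counting error only. On the 5 Principal DR plates the share ran from 10.6 to 16.3%, with a median of 11.8%. On the 11 All DR plates it ran from 0 to 12.5%, with a median of 4.11%, and 10 of the 11 held at least 1 dual cell. The ranges of the plates of both dissections thus overlapped, while the dissections cannot be told apart from their plates.

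**Figure D1:**
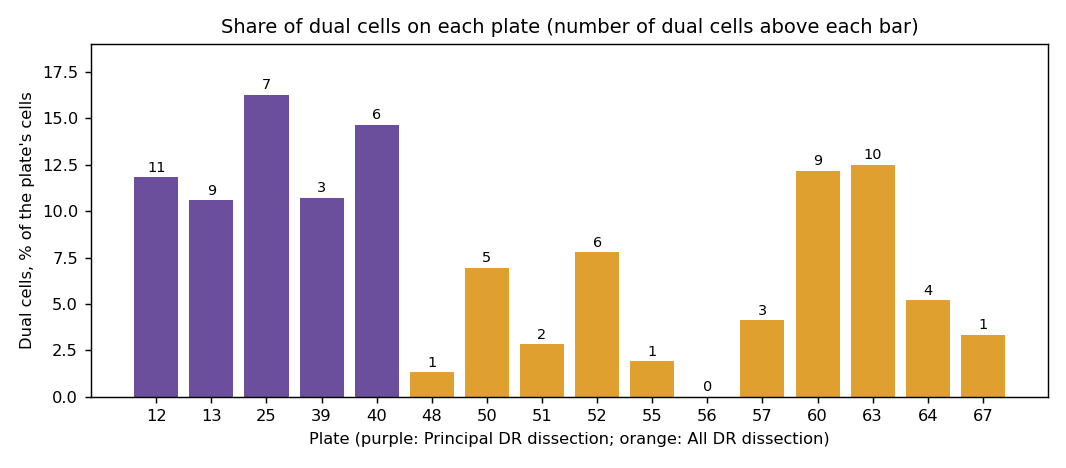
Share of dual cells on each of the 16 plates, in % of the plate's cells, with the number of dual cells above each bar. Principal DR plates lie between 10.6 and 16.3% and All DR plates between 0 and 12.5%.

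The cells nearest the minimum were as follows. The lowest Slc17a8 level of a dual cell was 10.8 CPM, and the lowest level of the larger of Gad1 and Gad2 was 11.9 CPM. Just outside lay 18 cells that met the Gad minimum with Slc17a8 above 0 but at most 8.68 CPM, and 9 cells that met the Slc17a8 minimum with a Gad at most at 9.26 CPM. In 30 of the 78 dual cells Slc17a8 and a Gad were both at 50 CPM or more. In reads, the smallest Slc17a8 value of a dual cell was 5 reads and the median 50.5, and the smallest sum of Gad1 and Gad2 was 6 reads and the median 93. The dual class is therefore a range cut from continuous levels, with 10 cells at 10 to 20 CPM of Slc17a8 and 4 cells at 10 to 20 CPM of the larger Gad.

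Slc17a8 (chromosome 10, 89574020 to 89621253, minus strand, GRCm38) had a median of 80.5 CPM in the Principal DR dual cells, with a range of 10.8 to 506 CPM. In the All DR dual cells its median was 53.9 CPM, from 12.4 to 632 CPM. The Vglut3-only cells had higher medians, 213 CPM in the Principal DR and 140 CPM in the All DR dissection, although the ranges overlapped. On 10 of the 11 plates with at least 3 cells of both kinds the mean of the dual cells was the lower one.

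Gad2 (chromosome 2, 22622205 to 22693874, plus strand) reached 10 CPM in 71 of the 78 dual cells, and Gad1 (chromosome 2, 70553072 to 70602014, plus strand) in 29. Both did so in 22 cells, Gad2 alone in 49 and Gad1 alone in 7. Gad2 had a median of 89.8 CPM in the Principal DR dual cells and of 58.5 CPM in the Gad-only cells of that dissection. In the All DR dissection the medians were 49.5 and 88.7 CPM, so the order of dual and Gad-only cells differed between the dissections. Gad1 was read in 20 of 36 Principal DR dual cells (55.6%) and in 9 of 42 All DR dual cells (21.4%). The Gad-only cells had nearly the same shares, 76 of 133 (57.1%) and 15 of 62 (24.2%). An antisense gene, Gad1os, overlaps Gad1, and the counting did not use strand, so their reads cannot be told apart.

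**Figure D2:**
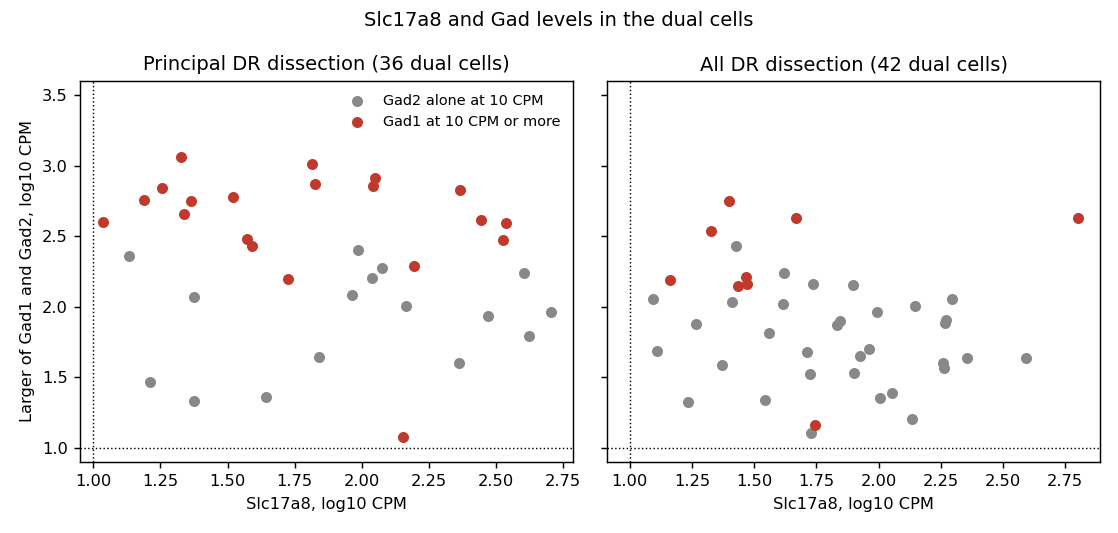
Level of Slc17a8 against the larger of Gad1 and Gad2 in each dual cell (log10 CPM on both axes; dotted lines, the minimum of 10 CPM; red, cells with Gad1 at 10 CPM or more). Cells with Gad1 make up 20 of 36 in the Principal DR and 9 of 42 in the All DR dissection.

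Among cells under the Zeb2 limit that had Slc17a8 at 10 CPM or more, 36 of 116 (31.0%, 22.8 to 40.3%) in the Principal DR and 42 of 368 (11.4%, 8.35 to 15.1%) in the All DR dissection also met the Gad minimum. Among cells with 0 reads of Slc17a8, 133 of 158 (84.2%, 77.5 to 89.5%) and 62 of 163 (38.0%, 30.6 to 46.0%) met it. Among these kept cells of both dissections a Gad was less frequent with Slc17a8 than without it, which only describes the genes of the rule. The Zeb2 limit had taken out 24 All DR cells that met the rest of the rule, and the shares without that limit are not given. Dual cells were present on 15 of the 16 plates.

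The dual cells were checked for serotonin genes, on which the rule did not rest. Tph2, which encodes the rate-limiting enzyme of brain serotonin synthesis, was read in 78 of 78 dual cells, with a mean of 8237 CPM in the Principal DR and 9077 CPM in the All DR dissection. Slc6a4 had means of 4197 and 4087 CPM, and Slc18a2 of 2884 and 2505 CPM, and Ddc had 2894 CPM over both. Against the Vglut3-only cells of the same plates the log2 ratio was -0.19 for Tph2, 0.03 for Slc6a4, 0.10 for Slc18a2 and -0.02 for Ddc. Against the Gad-only cells it was 0.09, 0.00, -0.24 and 0.00. Single cells were lower than these means, the lowest dual cell having 366 CPM of Tph2, 195 CPM of Slc6a4, 131 CPM of Slc18a2 and 0 of Ddc. The study kept cells by Tph2, so its presence was in part set beforehand. None of the 13 genes of serotonin synthesis, transport and breakdown was called by the rule given with the comparisons, by which 0.769% of all genes compared were called higher and 0.288% lower than in Vglut3-only cells, and 0.405 and 0.0834% against Gad-only cells, so such a count is near that of all genes. Fev had a mean of 219 CPM in the Principal DR and 276 CPM in the All DR dual cells, and lay above the Vglut3-only cells by a log2 ratio of 0.37, on 10 of 11 plates, and below the Gad-only cells by -0.18, which is under the log2 ratio of 1 asked of a call.

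Vgat transcript was nearly missing. Slc32a1 was read in 1 of 36 dual cells of the Principal DR and in 0 of 42 of the All DR dissection, against 0 of 397 Vglut3-only and 4 of 195 Gad-only cells. The single dual cell with reads had 5.93 CPM. The pooled share of 1 of 78 (1.28%) has an interval of 0.0325 to 6.94%. In the whole table Slc17a6, the gene of Vglut2, was read in 2 cells and Slc17a7, the gene of Vglut1, in 0, and none of these was a dual cell, which allows a share of up to 3.85% of the dual cells. This limit for a count of 0 is 3 cells over the number of cells, here and in later places, and not the Clopper-Pearson bound. Vglut3 was thus the vesicular glutamate transporter read in the dual cells.

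The dual cells had the most reads in one dissection and the fewest in the other. Their median number of reads on genes was 829626 in the Principal DR and 764801 in the All DR dissection, against 770067 and 912897 in the Vglut3-only and 726073 and 824949.5 in the Gad-only cells. Of the dual cells 9 of 78 (11.5%) were above the 90th percentile of reads of their plate, against 53 of 397 (13.4%) Vglut3-only and 18 of 195 (9.23%) Gad-only cells. The median number of detected genes was 9469 in dual, 9728 in Vglut3-only and 9657 in Gad-only cells, and 8579.5, 8805.5 and 8725 after every cell was thinned to 250000 reads. Wells that received 2 cells were not searched for with a program, and the part of depth in the results was not tested.

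Markers of other cells were low. The summed level of 10 oligodendrocyte markers ran from 0 to 436 CPM in dual cells, with a median of 93.3 CPM, against medians of 102 CPM in Vglut3-only and 111 CPM in Gad-only cells, and of the 10 markers 7 were read and Mog, Mag and Opalin were at 0 in the dual cells. The sum of 10 astrocyte markers had a median of 0 CPM and a range of 0 to 112 CPM in dual cells, with Gfap and Gjb6 at 0. That list holds Slc1a2, without which the highest sum was 24.3 CPM. The 8 detected microglia markers ran from 0 to 174 CPM, with a median of 62.5 CPM, against medians of 54.5 and 80.3 CPM in the Vglut3-only and Gad-only cells, and P2ry12, Tmem119, Csf1r, C1qc and Ctss were at 0. The 6 endothelial and mural and the 6 GABA and glycine neuron markers detected in the table had medians of 0 in the dual cells, with highest sums of 27.1 and 35.6 CPM, and so had the 3 dopamine and noradrenaline neuron markers, with 17.2 CPM.

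Genes other than those of the rule were then compared between the dual cells and each comparator. The ratio was log2 of the mean CPM of dual cells plus 1 over that of the comparator plus 1, with each comparator plate weighted by its number of dual cells. A gene with a mean of 10 CPM or more on either side was compared. It was called when the log2 ratio was at least 1 in size, had the same sign in both dissections and on at least 75% of the 11 plates that held 3 or more cells of both kinds, and the gene was read in at least 20% of the cells of the higher side. The calls thus rest on size and agreement and not on a test. The sets were cut by Slc17a8 and Gad, so a gene that varies with either over serotonin neurons differs between the sets by construction.

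Against the Vglut3-only cells, 64 of 8324 genes were higher (0.769%) and 24 were lower (0.288%) in the dual cells. The median log2 ratio of all genes compared was 0.01. Both counts moved with the settings, to 21 and 15 without the Zeb2 limit and to 24 and 9 with a pseudocount of 10 CPM. The genes that led the higher side were Trh, Asb4, Oas1e, Pax5, Adamtsl2, Bcl11a, Fam19a2, Pcsk6, Emilin2 and Pdgfd. Those that led the lower side were Nr2f2, Sln, Cacng5, Rorb, Lpar1, Slc1a2, Cmbl, Wscd1, Adcyap1 and Ramp3. Every leading higher gene had a Vglut3-only mean under 10 CPM, from 0.464 CPM for Oas1e to 7.05 CPM for Asb4. These genes passed the filter on the mean through the dual cells alone, so their calls are a description only. Nr2f2, Sln, Slc1a2 and Ramp3 passed it through the Vglut3-only cells alone. Without the highest cell of each gene in turn, taken on its higher side, 47 of the 64 and 22 of the 24 genes were still called. Of those named in the text, Trh, Oas1e, Grin3a, Tent5a and Tab3 were not.

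Trh, which encodes thyrotropin-releasing hormone, was read in 8 of 36 Principal DR dual cells (22.2%, 10.1 to 39.2%) and 8 of 42 All DR dual cells (19.0%, 8.6 to 34.1%). Of the Vglut3-only cells 0 of 80, which allows up to 3.75%, and 6 of 317 (1.89%) had a read of it. The log2 ratio of the means was 5.18, and on 10 of 11 plates the dual cells were higher. The mean of 64.9 CPM rested on few cells, since the median over dual cells was 0 and the highest cell had 1601 CPM. Without that cell the mean was 45.0 CPM and the log2 ratio 4.65, while the call was lost, since the share with a read then fell under 20%.

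Asb4, a gene of the ankyrin repeat and SOCS box family, was spread over more of the dual cells. It was read in 61.1% of Principal DR and 40.5% of All DR dual cells, against 16.2 and 9.15% of Vglut3-only cells. Its mean was 187 CPM in dual cells (SD 309 over 78 cells) and 7.05 CPM in Vglut3-only cells, a log2 ratio of 4.54. The means of the plates with at least 3 dual cells ran from 81.3 to 498 CPM and did not overlap those of the Vglut3-only cells, 0 to 18.0 CPM.

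Pax5, a paired-box transcription factor, was read in 23 of 36 Principal DR dual cells (63.9%, 46.2 to 79.2%) and 19 of 42 All DR dual cells (45.2%, 29.8 to 61.3%). In the Vglut3-only cells the shares were 12.5 and 5.36%. The log2 ratio was 2.55 in the Principal DR and 2.59 in the All DR dissection, so the size was alike in both. After thinning to 250000 reads the shares in dual cells were 52.8 and 37.5%, and 11.4 and 3.83% in Vglut3-only cells. The zinc finger factor Bcl11a was higher by a log2 ratio of 2.54 on 11 of 11 plates. Pax5 and Bcl11a are each overlapped by genes on the opposite strand, and so is Oas1e, which also belongs to a family of near copies, so the reads of these genes are uncertain in part.

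Other genes with known roles that were higher than in Vglut3-only cells were Prph, which encodes the intermediate filament peripherin (log2 ratio 1.99), Aff2 (1.68), the NMDA receptor subunit gene Grin3a (1.57) and the histamine receptor gene Hrh3 (1.24). Aff2 and Grin3a had Vglut3-only means of 4.33 and 2.93 CPM, so they passed the filter on the mean through the dual cells alone. Hrh3 was common rather than rare. It was read in 89.7% of dual and 90.4% of Vglut3-only cells, while its mean was 88.2 CPM in dual and 36.7 CPM in Vglut3-only cells. The plate means of the dual cells, 57.0 to 125 CPM, did not overlap those of the Vglut3-only cells, 28.8 to 55.7 CPM. A further list held 11 genes taken here as dorsal DR genes linked with Gad, chosen with earlier results of these data known. The paper gives Bcl11a, Nfix, Nfib, Drd2, Aff2 and Crh for a dorsal DR cluster that it also lists with Vglut3. The log2 ratio was above 0 for 10 of the 11 and at least 1 for 9, with a median of 1.99. The comparator was cut to have 0 reads of Gad, so this rise was largely set beforehand and is a description only. Of the 11, 6 passed the filter on the mean, 5 of them through the dual cells alone, so the calls among them are not read further.

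On the lower side, Nr2f2, which encodes the nuclear receptor COUP-TFII, was read in 2 of 36 Principal DR dual cells (5.56%) and 10 of 42 All DR dual cells (23.8%), against 58.8 and 80.4% of Vglut3-only cells. Its mean was 6.76 CPM in dual and 32.4 CPM in Vglut3-only cells, and it was lower on 11 of 11 plates. The orphan nuclear receptor gene Rorb was lower by a log2 ratio of -1.55, with reads in 19.4 and 21.4% of dual against 38.8 and 63.7% of Vglut3-only cells. Adcyap1, which encodes the peptide PACAP, had a log2 ratio of -1.38. The receptor genes Crhr2, for corticotropin-releasing factor and urocortins, and Lpar1, for lysophosphatidic acid, had log2 ratios of -1.08 and -1.53. Slc1a2, the glutamate transporter gene best known from astrocytes, had -1.51 and was the 1 called gene of 8 compared in glutamate handling. The 9 other astrocyte markers had a summed median of 0 in both sets and means of 1.88 CPM in dual and 3.00 CPM in Vglut3-only cells. Nr2f2 and Slc1a2 overlap antisense genes.

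**Figure D3:**
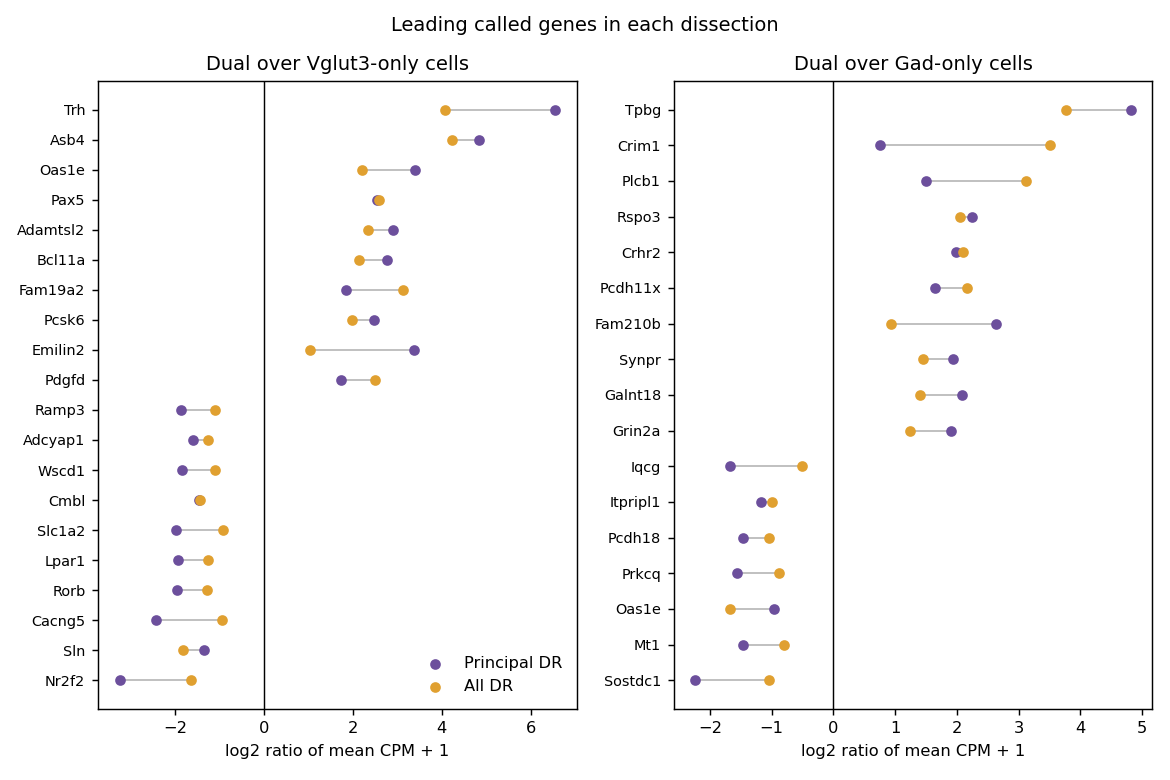
Leading called genes of both comparisons, as log2 ratios of mean CPM plus 1 in each dissection (purple, Principal DR; orange, All DR). Trh and Asb4 lead against Vglut3-only cells at 5.18 and 4.54 over both dissections, and Tpbg against Gad-only cells at 4.15. Pax5 had 2.56 against Vglut3-only cells. These 4 genes passed the filter on the mean of 10 CPM through the dual cells alone.

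Against the Gad-only cells 34 of 8390 genes were higher (0.405%) and 7 lower (0.0834%) in the dual cells. The 34 became 14 and the 7 became 1 with a pseudocount of 10 CPM, and the 7 became 23 with a minimum of 20 CPM in the rule and 24 with no filter on the mean. Without the Zeb2 limit 25 and 16 were called. The median log2 ratio was -0.02. Genes that led the higher side were Tpbg, Crim1, Plcb1, Rspo3, Crhr2, Pcdh11x, Fam210b, Synpr, Galnt18 and Grin2a. All of these but Pcdh11x, Fam210b and Grin2a had Gad-only means under 10 CPM. They passed the filter on the mean through the dual cells alone, so their calls are a description only. Crim1 rested in large part on 1 cell with 413 CPM, which is 40 of its 96834 reads. Without that cell its mean fell from 10.5 to 5.26 CPM, its log2 ratio from 2.25 to 1.36, and its call was lost. Without the highest cell of each gene in turn, 24 of the 34 and 6 of the 7 were still called. The 7 lower genes were Sostdc1, Mt1, Oas1e, Prkcq, Pcdh18, Itpripl1 and Iqcg. All of them but Oas1e and Prkcq passed the filter through the Gad-only cells alone. With 1 plate left out, that lower count was 12 without plate 12, 13 without plate 13, 14 without plate 25, 12 without plate 40, 19 without plate 50, 19 without plate 52, 16 without plate 57, 11 without plate 60 and 13 without plate 64.

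Tpbg, which encodes the membrane protein trophoblast glycoprotein, was read in 33.3% of Principal DR and 28.6% of All DR dual cells, against 3.01 and 8.06% of Gad-only cells. Its mean was 32.0 CPM in dual and 0.857 CPM in Gad-only cells, and it was higher on 11 of 11 plates. In Vglut3-only cells it was read in 43.8 and 30.3%, so the dual cells had shares close to those. An antisense gene overlaps it. Crhr2 (log2 ratio 2.05), the serotonin receptor gene Htr5b (1.56), the NMDA receptor subunit gene Grin2a (1.68) and Cited1, a transcriptional co-regulator gene (1.38), were also higher than in Gad-only cells. Rspo3, which encodes a secreted enhancer of Wnt signalling, had 2.15, and Plcb1, a phospholipase C gene, 2.17.

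Crhr2 and Cited1 were called in both comparisons, lower than in Vglut3-only and higher than in Gad-only cells. Crhr2 was read in 70.0% of Vglut3-only, 44.4% of dual and 27.1% of Gad-only cells of the Principal DR, and in 67.8, 31.0 and 8.06% in the All DR dissection. The mean of Cited1 was 253, 116 and 43.9 CPM in Vglut3-only, dual and Gad-only cells. Oas1e was between on the other side, with 0.464, 10.1 and 24.7 CPM. Npy2r, a neuropeptide Y receptor gene, had a log2 ratio of 2.18 over Gad-only cells but was higher on 7 of 11 plates only and was not called. It was read in 55.6 and 33.3% of dual cells, 60.0 and 40.4% of Vglut3-only and 22.6 and 8.06% of Gad-only cells.

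Over the same dorsal DR list, the log2 ratio of dual over Gad-only cells was above 0 for 4 of 11 genes, with a median of -0.53. Sox14, a transcription factor gene of that list, was read in 19.4 and 23.8% of dual cells against 64.7 and 38.7% of Gad-only cells, and Trh in 22.2 and 19.0% against 61.7 and 27.4%. The intervals of these shares did not overlap in the Principal DR and did so in the All DR dissection. Of 11 genes taken here as ventral DR genes linked with Vglut3, also chosen with earlier results known, Crhr2 was the 1 gene called. It was among 8 compared with Vglut3-only and 7 with Gad-only cells. Of all genes compared, 0.288% were called lower than in Vglut3-only and 0.405% higher than in Gad-only cells. Over the 11 ventral genes the log2 ratio was above 0 for 3 against Vglut3-only cells, with a median of -0.35. Against Gad-only cells it was above 0 for 10, with a median of 0.42. The comparators were cut by Slc17a8 and Gad, so these signs are a description only.

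**Figure D4:**
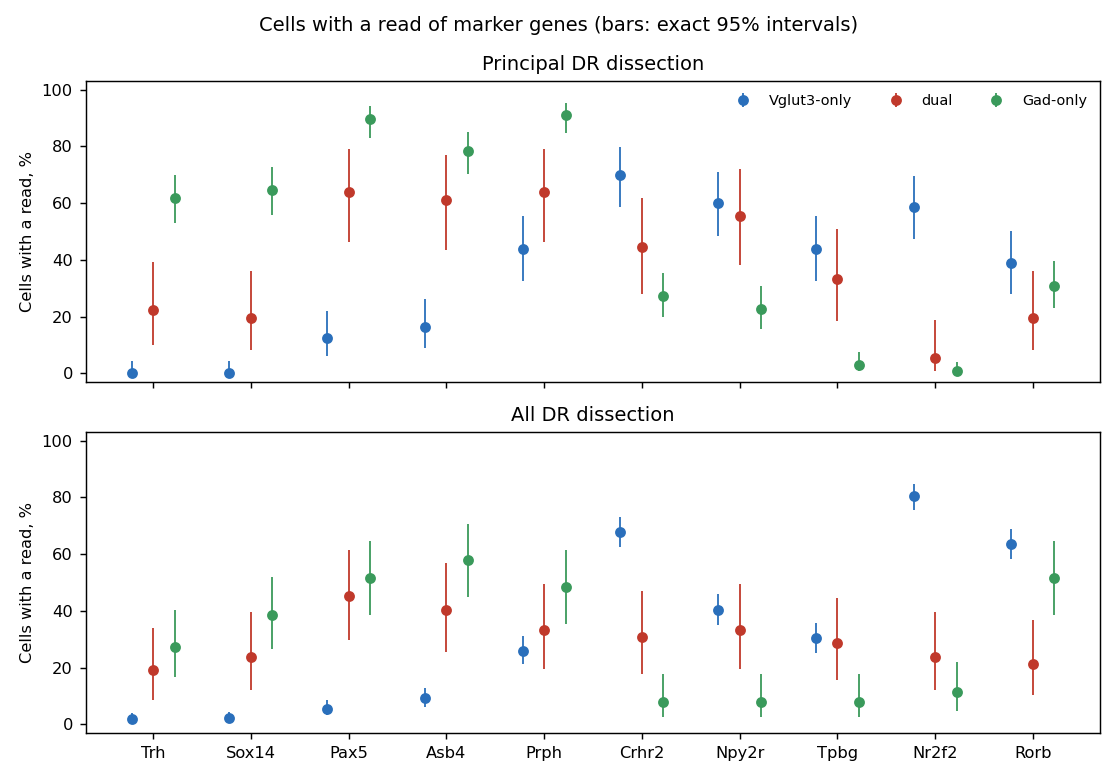
Percent of cells with a read of 10 marker genes in Vglut3-only, dual and Gad-only cells, with exact 95% intervals, for each dissection. The dual cells lie between the comparators for Trh, Pax5, Asb4, Crhr2 and Nr2f2, while for Rorb they lie lowest, at 19.4 and 21.4%.

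By the rule, 4 genes were called higher in dual cells than in both comparators, namely Nectin3, Tent5a, Tab3 and Rprm. Without the highest dual cell of each gene only Nectin3 kept both calls. Tab3 rested in large part on 1 cell with 661 CPM, which is 64 of its 96834 reads, and without it the mean fell from 17.7 to 9.35 CPM and the log2 ratios to 0.48 and 0.58. Tent5a lost both calls and Rprm that against Gad-only cells. Nectin3, a cell adhesion gene, was read in 26 of 36 Principal DR dual cells (72.2%, 54.8 to 85.8%), against 35.0% of Vglut3-only and 26.3% of Gad-only cells. In the All DR dissection the shares were 38.1, 23.7 and 22.6%, and their intervals overlapped. Rprm, which encodes the cell cycle regulator Reprimo, had a mean of 42.8 CPM in dual cells, 17.7 CPM in Vglut3-only and 20.8 CPM in Gad-only cells. It was read in 48.7% of dual and 54.4% of Gad-only cells, so its higher mean came with no higher share than in Gad-only cells. No gene was called lower than in both.

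For the other gene groups, counts near 0 are what the shares called over all genes, 0.769, 0.288, 0.405 and 0.0834%, would give, so they are no result about the groups. In GABA handling 0 of 7 genes were called in either comparison. Of the serotonin identity transcription factors 0 of 5 were called in either. Of GABA receptor genes 0 of 12 were called against Vglut3-only and 0 of 13 against Gad-only cells, and of glutamate receptor genes 1 of 15 (Grin3a) and 1 of 17 (Grin2a). Of monoamine and acetylcholine receptor genes 1 of 9 was called against Vglut3-only cells (Hrh3) and 0 of 9 against Gad-only cells. Among neuropeptides Trh and Adcyap1 were called of 5 compared with Vglut3-only cells, on opposite sides. Of 9 neuropeptide receptor genes compared Crhr2 alone was called, in both comparisons, and of 4 serotonin receptor genes Htr5b alone, against Gad-only cells. Of 18 genes listed here as median raphe and caudal DR genes 1 of 5 was called against Vglut3-only cells (Rorb, lower) and 0 of 8 against Gad-only cells. The median log2 ratio of those 5 was 1.34, and 12 of the 18 were above 0. Grik1 had 3.07, with 3.47 in the All DR and -0.75 in the Principal DR dissection. It was higher on 3 and lower on 5 of 11 plates. Rxfp1, Zfp536 and Calcr had 1.35, 1.34 and 0.70. Against Gad-only cells the median of the 8 was -0.41. Of immediate-early genes, which follow neuronal activity, 0 of 8 were called against Vglut3-only cells, with a median log2 ratio of 0.44. Of these, 7 were higher in both dissections, as were 31.2% of all genes compared.

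To place each cell between the comparators, genes called between Gad-only and Vglut3-only cells were used, 99 of 8362 higher (1.18%) and 86 lower (1.03%) in Gad-only cells. The difference of the mean log2(CPM+1) of both groups of genes was scaled so that the Vglut3-only cells averaged 0 and the Gad-only cells 1 over the plates. These genes were chosen on the comparators and not on the dual cells. The dual cells had a median position of 0.65 in the Principal DR (SD 0.43, from -0.28 to 1.42, 36 cells) and of 0.48 in the All DR dissection (SD 0.48, from -0.24 to 1.58, 42 cells). The Vglut3-only cells had an SD of 0.27 and 0.24, and the Gad-only cells of 0.28 and 0.43. The dual cells were thus not gathered at one point. Of the 78, 17 lay under 0.25, 32 between 0.25 and 0.75, and 29 above 0.75. With genes taken from the other dissection these were 6, 16 and 14 of the 36 Principal DR cells, in place of 6, 13 and 17, and 18, 10 and 14 of the 42 All DR cells, in place of 11, 19 and 12.

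**Figure D5:**
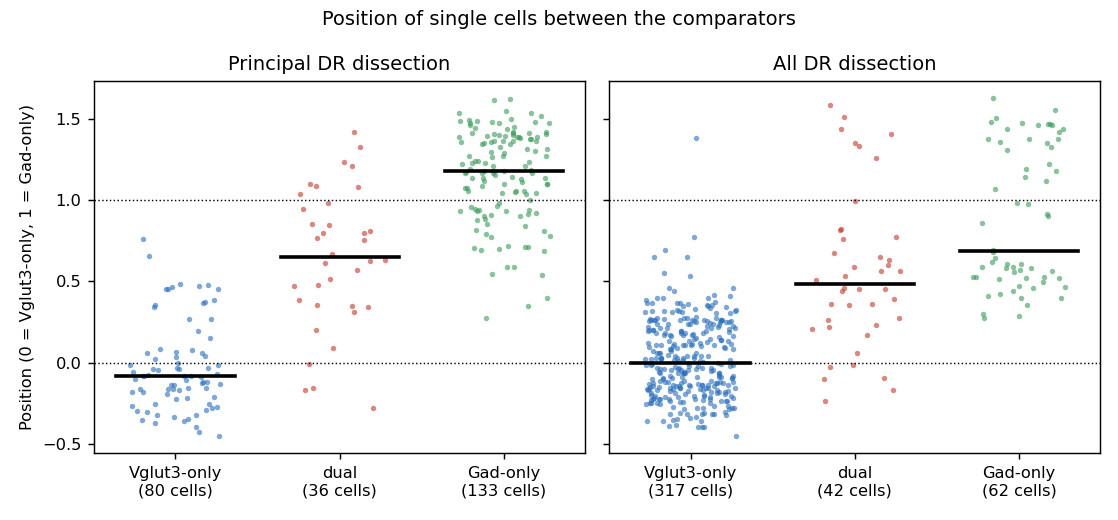
Position of each cell on the scale from Vglut3-only (0) to Gad-only (1), by set and dissection; bars are medians. The dual cells spread over the whole scale, with medians of 0.65 and 0.48.

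When the genes were taken from the other dissection, the medians of the dual cells were 0.61 in the Principal DR and 0.36 in the All DR dissection. The SD over the All DR cells was then 0.77 for dual and 0.87 for Gad-only cells, so there the Gad-only cells spread more. Gene by gene, the mean of the dual cells lay between the comparator means for 90 of the 99 genes on the Gad side and 74 of the 86 on the Vglut3 side. Within the dissections these were 80 and 71 genes in the Principal DR and 72 and 61 in the All DR dissection. Over both dissections the median gene was 0.71 of the way from the Vglut3-only to the Gad-only mean on the Gad side and 0.46 on the Vglut3 side. The genes were picked for a log2 ratio of at least 1 between the comparators, which by itself favours a mean between them. These counts and medians are therefore a description only. In the All DR dissection the Gad-only cells themselves fell apart along the scale, with quartiles at 0.52 and 1.35, so a position near 0.5 is within their own range there.

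The dual cells were also described by their Gad genes, with no comparison drawn, since Gad1 is a gene of the rule and the position genes were found between sets cut by it. The 29 cells with Gad1 had a median position of 0.85 (SD 0.43), and the 49 cells with Gad2 alone of 0.45 (SD 0.40), and their ranges overlapped. Pax5 was read in 24 of the 29 and 18 of the 49, and Asb4 in 24 and 15. Trh was read in 11 and 5, and Nr2f2 in 1 and 11, respectively. Crhr2 was read in 11 of the 29 (37.9%) and 18 of the 49 (36.7%). Within the dissections the median positions were 0.80 and 0.47 in the Principal DR and 1.26 and 0.44 in the All DR dissection.

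Genes of both sides met in the same dual cells for some pairs and not for others. These pairs were picked after their values were seen. Pax5 and Crhr2 were read together in 17 of 78 dual cells (21.8%, 13.2 to 32.6%), against 18 of 397 Vglut3-only (4.53%) and 37 of 195 Gad-only cells (19.0%). Pax5 and Npy2r met in 19 dual cells (24.4%), against 12 Vglut3-only (3.02%) and 31 Gad-only cells (15.9%). Sox14 and Crhr2 met in 9 dual cells and Trh and Npy2r in 6. Trh and Crhr2 met in 1 dual cell, against 4 Vglut3-only and 23 Gad-only cells. Asb4 and Nr2f2 met in 1 dual, 15 Vglut3-only and 0 Gad-only cells. Pax5 and Nr2f2 met in 0 of 78 dual cells, which allows a share of up to 3.85%, with 42 cells reading Pax5 without Nr2f2 and 12 the reverse. They met in 10 of 397 Vglut3-only cells and 1 of 195 Gad-only cells.

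Across all genes, with those of the rule left out, the 15 nearest cells of the same plate were described for each set. In the Principal DR, 16.3% of the neighbours of dual cells were dual, with 11.2% of the plate dual. Their other neighbours were 28.5% Vglut3-only and 42.6% Gad-only, against 29.0 and 46.5% of the plate. These differences from the plate changed sign with 1 plate left out, from -1.97 to 2.99 percentage points for Vglut3-only and from -7.02 to 0.95 for Gad-only neighbours. In the All DR dissection 9.84% were dual (8.35% of the plate), 52.1% Vglut3-only (53.4%) and 10.3% Gad-only (9.95%), and these differences too changed sign, from -2.38 to 1.82 and from -0.61 to 1.25. Within each dissection the comparators had more of their own kind around them, over their share of the plate, than the dual cells had. Principal DR plates held 3 to 11 dual cells and All DR plates 0 to 10. With 15 neighbours from 1 plate, the share of dual neighbours was thus capped by the size of the class. These excesses therefore cannot tell how far the dual cells formed a group compared with the larger sets. In the Principal DR, Vglut3-only cells had 57.5% Vglut3-only neighbours (27.2% of the plate) and Gad-only cells 69.3% Gad-only neighbours (45.6%). In the All DR dissection these were 71.9% (56.3%) and 15.0% (10.8%). Cell by cell, 27 of the 78 dual cells had more Gad-only and fewer Vglut3-only neighbours than their plate, 32 had the reverse, and 19 had neither pattern.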

How the data were processed

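The authors demultiplexed the reads with bcl2fastq 2.19.0.316, aligned them to mm10 (GRCm38) with STAR 2.6.1a, counted them per gene with HTSeq 0.11.2 in its unstranded setting, dropped genes on chromosome Y, and deposited the values as CPM. The submitters' processing notes give these versions. Of 1536 labelled cells, 999 have a column; the other 537 were not analysed here. All values above 0 in the deposited CPM, 9386862 of 9386862 (100%), were whole multiples, within 0.001, of 1 read of their cell, so reads were recovered. No column of other per-sample values (0) was present. Reads ranged from 96834 to 2780443 per cell in the sets compared, without molecular identifiers.

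Ratios were computed with a pseudocount of 1 CPM on 25522 genes read in at least 3 cells, with NumPy 2.4.6, pandas 2.3.3, SciPy 1.17.1 and matplotlib 3.10.9 (Python 3.11.15), and tested on simulated data. No count test was run, since each dissection is 1 sample. Neighbours were taken in 20 components of ln(CPM+1). Coordinates are from GENCODE M21. No doublet caller was run. Genes named are those of the rule, serotonin genes, the 10 leading called genes of each direction, genes called against both comparators, called list members and up to 4 more per list. The members and lists were chosen with earlier results of these data known.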

Additional observations from a re-analysis of the deposited data

How the results depend on the processing

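No paired analysis was possible because the labels give no replicate numbers or animals shared by groups; sets were compared within plates instead, with no test. Under other settings the number of dual cells stayed within 1.5 times its value and both median positions within 1 SD of the plate means. No log2 ratio of a called named gene changed sign, and only these were checked for a reversal. The neighbour differences did change sign with 1 plate left out, as given above. Counts of called genes moved more. They are given in the order higher and lower than Vglut3-only, then higher and lower than Gad-only cells, where they moved. Without the Zeb2 limit they were 21, 15 and, for lower than Gad-only, 16. With a pseudocount of 10 CPM they were 24, 9, 14 and 1. With a log2 ratio of 1.5 asked of a call they were 25, 6, 14 and 0. With the Principal DR alone they were 120, 48, 99 and 57, and with the All DR alone the last 2 were 63 and 48. Genes lower than in Vglut3-only cells were 48 with no filter on the mean and 84 by the mean of log2(CPM+1). The 7 genes lower than in Gad-only cells became 23 with a minimum of 20 CPM in the rule, 24 with no filter on the mean, 14 without plate weighting, 24 by the mean of log2(CPM+1), 12 without the deepest 10% of each plate, and 14 with the ribosomal RNA gene CT010467.1 out of the totals, a setting chosen after seeing the data. Leaving out each plate in turn gave 67 to 78 dual cells, counts of 61 to 79, 22 to 28, 32 to 46 and 6 to 19, and median positions of 0.61 to 0.73 in the Principal DR and 0.42 to 0.55 in the All DR dissection. The cause was not tested. Leaving out each gene's highest cell, or cells under 250000 reads, both also chosen after seeing the data, kept every count within 1.5 times. A like count can hold other genes. With a minimum of 5 CPM, 7 genes were again lower than in Gad-only cells, and 3 of them were among the main 7. There 57 of the 64 genes higher than in Vglut3-only cells were kept. In the All DR alone 2 of the main 7 were kept, and without the Zeb2 limit 18 of the 64. Of 742 log2 ratios of called named genes under other settings, 733 stayed within the SD of that gene's ratio over plates and 9 moved. All 848 with a plate left out stayed. That SD can exceed the ratio itself, as for Crhr2 against Vglut3-only cells (SD 2.26, log2 ratio -1.08). Leaving out 1 plate can hardly move a ratio that far, so these counts are a weak check and support no gene.

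The number of cells limits what is said of rare genes: a gene read in 0 of 78 dual cells could still be read in up to 3.85% of such cells. That limit rests on the number of cells only. It does not cover transcripts missed for lack of reads, which was not tested.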

Other observations

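The Zeb2 limit kept out 24 cells that met the rest of the rule, 0 from the Principal DR and 24 from the All DR dissection, on 9 plates. They carried Slc17a8 at a median of 36.5 CPM and Gad2 at a median of 96.8 CPM, and Gad1 was read in 2 of the 24, against 29 of the 78 dual cells. The mechanosensitive channel gene Piezo2 was read in 20 of them (83.3%), against 4 of the 78 dual cells. Pax5 was read in 0 of 24, which allows up to 12.5%, and Nr2f2 in 23 (95.8%), and their position on the scale between Vglut3-only and Gad-only cells had a median of -0.02, from -0.11 to 0.14, with an SD of 0.07. Among the 78 dual cells Nr2f2 was read in 15.4% and Pax5 in 53.8%. These values were looked at after the data had been seen.

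The 30 dual cells with Slc17a8 and a Gad both at 50 CPM or more had a median position of 0.46 (SD 0.41, from -0.28 to 1.51), and the other 48 of 0.63 (SD 0.47). Pax5 was read in 16 of the 30 and 26 of the 48, and Crhr2 in 13 and 16. The 18 cells with a Gad at the minimum and some Slc17a8 below it had a median position of 0.66, and the 9 with Slc17a8 at the minimum and some Gad below it of 0.17.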
